A study of Homo sapiens with 18 samples.

Results

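Glycolysis and the transcriptional response to low oxygen were followed through 41 genes, taken by symbol from the 63241 genes of the count table. They comprise the 2 alpha subunits of the hypoxia-inducible factors HIF-1 and HIF-2, 2 HIF prolyl hydroxylases, 4 glucose and lactate transporters, 15 glycolytic enzymes, 2 enzymes that set the level of the allosteric activator of phosphofructokinase, 4 enzymes of pyruvate fate and 12 hypoxia targets with other functions. Poly(A) RNA was sequenced in 18 libraries from 2 prostate cancer cell lines described as wild type, in 6 groups of 3. LNCaP, a prostate cancer line that grows in response to androgen, was untreated, or had received genistein at 10 or 20 µM or baicalein at 10 or 20 µM for 24 h. PC-3, a line that grows without androgen, was untreated. The sample labels call the controls untreated, whereas the treatment protocol has a control that received the solvent DMSO alone. Baicalein belongs to the flavones and genistein to the isoflavones, isomers that differ in the attachment of the phenyl ring and in the positions of hydroxyl groups. The labels do not say whether the 3 libraries of a group came from separate cultures, so p-values cover only the variation among the sequenced libraries, part or all of which may be technical.

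Glycolysis converts glucose to pyruvate, which lactate dehydrogenase reduces to lactate or which enters the mitochondria through pyruvate dehydrogenase. When oxygen is scarce, the prolyl hydroxylases that mark HIF alpha subunits for destruction lose activity, and the stabilized subunits pair with ARNT and bind a short core sequence in their target genes. Most glycolytic genes, the glucose transporter SLC2A1, the pyruvate dehydrogenase kinase PDK1, VEGFA and CA9 are textbook targets. HIF alpha is regulated mainly at the level of the protein, which was not measured here.

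Levels are given as CPM, which are counts scaled to library size, with TMM factors that put all 18 libraries on 1 scale, and therefore are relative to all other RNA of a library. Fold changes were scaled within each fit and differ slightly from ratios of CPM. Fewer cells and less RNA per cell cannot be told apart in such bulk samples. Log2 fold changes are from edgeR's quasi-likelihood test and are given ± standard error, and a gene was called at a Benjamini-Hochberg adjusted p under 0.05 over all genes tested. Many members with values per library were chosen partly because their libraries did not overlap. For these, lack of overlap is a description and adds no evidence to the call. The share of all genes without overlap is not given here. Total counts ran from 10013567 to 18445711 per library. Of the 41 members, 39 passed the filter on low counts in both fits, and CA9 and SLC2A3 did not. The summed level of 6 luminal prostate markers, KLK2, KLK3, FOLH1, TMPRSS2, KRT8 and KRT18, was 2879.5 to 3269.9 CPM in untreated LNCaP, 970.3 to 1181 CPM with baicalein at 20 µM and 453 to 537 CPM in PC-3. None of these 6 markers was at 0 in any group. Not all 6 followed the sum. KRT8 was called higher with baicalein at 20 µM, a call lost in some alternative fits (log2 0.30 to 0.45, adjusted p of 0.0641 to 0.0856). KRT18 was called higher in PC-3, a call lost without the filter on low counts (log2 0.31, adjusted p = 0.0628). The 6 basal or mesenchymal markers were KRT5, KRT14, TP63, VIM, CD44 and CAV1. They summed to 6.61 to 7.53 CPM in untreated LNCaP, 21.0 to 21.9 CPM with baicalein at 20 µM and 2428 to 2716 CPM in PC-3. In PC-3, KRT5, KRT14 and TP63 were at 0, so that its sum came from VIM, CD44 and CAV1 alone. KRT5 was also at 0 in untreated LNCaP and with baicalein at 20 µM. The 4 leukocyte markers, of which CD3E was at 0 with baicalein at 20 µM, summed to 0.308 to 0.632 CPM untreated and 1.94 to 3.15 CPM with it, and the 7 fibroblast and endothelial markers to 13.1 to 21.1 CPM over all libraries, with CDH5 at 0 in every group. Mitochondrially encoded genes took 10.5, 14.5 and 12.4% of the counts in the libraries with baicalein at 20 µM, against 4.65 to 6.35% in the other 12 LNCaP libraries. The part of these shifts in the results below was not tested, except that counts of members were repeated without the mitochondrially encoded genes.

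In untreated LNCaP, the members covered a wide range of levels per kilobase of exon. GAPDH led with 715 ± 112 CPM per kb (SD, n = 3), followed by ENO1 with 253 ± 26.7 and TPI1 with 136 ± 14.5. LDHB and ALDOA came next with 119 ± 12.3 and 107 ± 6.75 CPM per kb, values within each other's spread. HIF1A stood at 74.9 ± 20.1 CPM per kb and EPAS1, the alpha subunit of HIF-2, at 0.238 ± 0.103. SLC16A3, ADM and SLC2A3 were each below 0.15 CPM per kb, and CA9 had no count in any of the 15 LNCaP libraries. Together, the 15 glycolytic enzymes and both lactate dehydrogenases took 0.739 ± 0.0742% of the scaled library in untreated LNCaP, 0.537 ± 0.0574% with baicalein at 20 µM and 2.03 ± 0.152% in PC-3 (SD, n = 3 each). The 3 libraries of baicalein at 20 µM lay between 0.492 and 0.601%, below all 3 untreated libraries at 0.657 to 0.802%.

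Baicalein at 20 µM had the most called members of the 4 treatments. Against untreated LNCaP, 20 of the 39 tested members (51.3%) were called lower and 9 (23.1%) higher, where 27.8% and 29.4% of all 16985 tested genes were called lower and higher. The median log2 fold change was -0.51 over the members and 0.04 over all genes. Genistein at 20 µM had 3 members (7.69%) called higher and 1 (2.56%) lower, against 8.31% and 8.12% of all genes, shares of members no larger than the background, with a median of 0.06 over the members and 0.05 over all genes. At 10 µM, no member was called by edgeR for genistein, where 0.0353% of genes were called higher and 0.0765% lower, and none for baicalein, where 0.0883% were called higher and 0.312% lower. DESeq2 also called 0 members at 10 µM, and 4 members had an unadjusted p under 0.05 for each drug. These 4 comparisons share the untreated libraries.

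**Figure D1:**
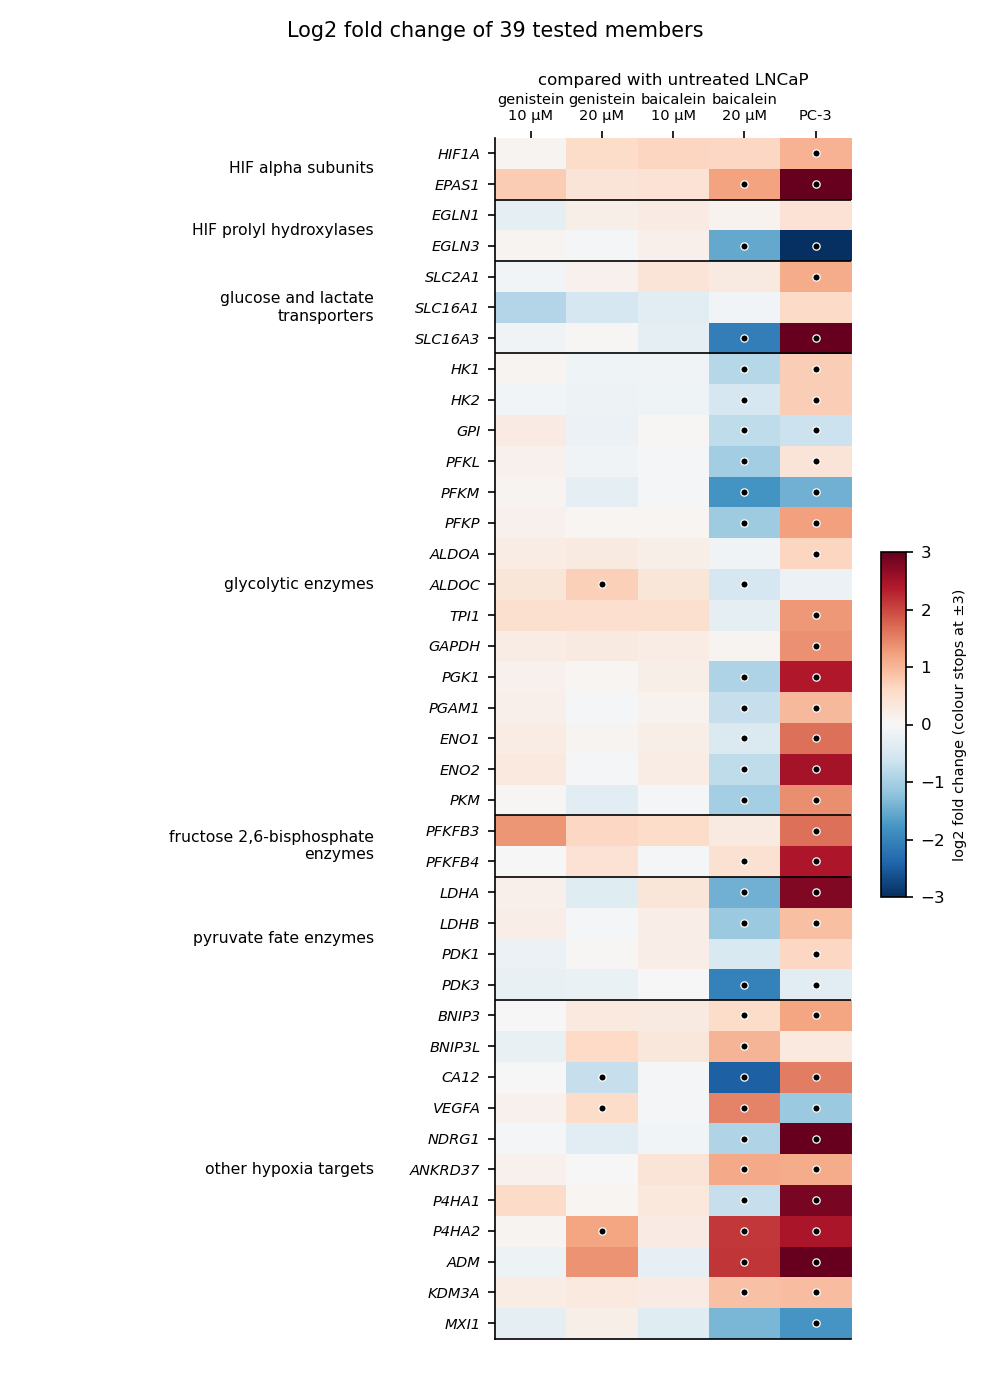
Log2 fold change of the 39 tested members (rows, by role) in each treatment of LNCaP and in PC-3, each against untreated LNCaP (columns). Colour gives the fold change, red higher and blue lower, and stops at 3 in either direction, and a black dot marks an adjusted p under 0.05. The 15 glycolytic enzymes held 12 called falls and no called rise with baicalein at 20 µM, and 12 called rises and 2 called falls in PC-3.

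The promoters of the members with the largest called falls and rises under baicalein at 20 µM are shown because HIF binds the cores ACGTG and GCGTG in its target genes. Each is 250 bases before to 50 after an annotated start, from RefSeq on GRCh38.p14, written 5′ to 3′ along the gene, and capitals mark either core or its reverse complement, CACGT or CACGC. The 3 falls are CA12, SLC16A3 and PDK3, and the 2 rises ADM and P4HA2. CA12 (chr15:63381797-63382096, minus strand), SLC16A3 (chr17:82228185-82228484, plus strand, the first of 5 starts in the table), PDK3 (chrX:24465036-24465335, plus strand), ADM (chr11:10304823-10305122, plus strand) and P4HA2 (chr5:132227042-132227341, minus strand) read as follows.
CA12: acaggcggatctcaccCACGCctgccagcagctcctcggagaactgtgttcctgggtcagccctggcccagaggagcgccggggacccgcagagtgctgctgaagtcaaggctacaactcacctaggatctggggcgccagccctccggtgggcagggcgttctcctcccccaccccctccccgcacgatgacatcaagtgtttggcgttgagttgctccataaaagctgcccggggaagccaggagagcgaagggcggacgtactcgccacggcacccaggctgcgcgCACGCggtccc
SLC16A3: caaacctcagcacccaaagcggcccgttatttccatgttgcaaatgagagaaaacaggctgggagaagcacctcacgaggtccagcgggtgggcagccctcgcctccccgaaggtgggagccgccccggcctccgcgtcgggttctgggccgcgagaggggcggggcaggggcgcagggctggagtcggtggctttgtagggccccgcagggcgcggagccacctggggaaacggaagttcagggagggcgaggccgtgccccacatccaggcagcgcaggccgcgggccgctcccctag
PDK3: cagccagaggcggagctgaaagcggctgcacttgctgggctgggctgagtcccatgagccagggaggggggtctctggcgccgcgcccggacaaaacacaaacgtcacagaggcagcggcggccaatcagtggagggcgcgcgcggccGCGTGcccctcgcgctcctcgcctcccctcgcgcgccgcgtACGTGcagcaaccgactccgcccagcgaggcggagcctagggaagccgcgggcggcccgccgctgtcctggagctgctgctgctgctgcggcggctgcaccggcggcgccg
ADM: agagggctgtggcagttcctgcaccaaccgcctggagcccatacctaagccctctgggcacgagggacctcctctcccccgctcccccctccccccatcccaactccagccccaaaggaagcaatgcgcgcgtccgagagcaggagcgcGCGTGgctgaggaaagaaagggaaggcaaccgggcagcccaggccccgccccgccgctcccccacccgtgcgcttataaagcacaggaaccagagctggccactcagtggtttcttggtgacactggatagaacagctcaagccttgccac
P4HA2: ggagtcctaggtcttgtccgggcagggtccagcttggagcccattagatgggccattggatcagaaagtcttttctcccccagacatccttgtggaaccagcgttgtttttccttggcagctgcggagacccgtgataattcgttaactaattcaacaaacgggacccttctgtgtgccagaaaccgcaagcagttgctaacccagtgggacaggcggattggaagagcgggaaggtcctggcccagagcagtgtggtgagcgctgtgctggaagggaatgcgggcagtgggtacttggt
CA12, which fell, held 2 GCGTG cores in this window, PDK3, which fell, 1 of each core, and ADM, which rose, 1 GCGTG core, while P4HA2, which rose, held 0. The window shown for SLC16A3, which fell, also held 0, but among its 5 starts a window held up to 2 ACGTG and up to 3 GCGTG cores. Over 36 members with an entry, 45 of 66 promoters (68.2%) held at least 1 of these cores on either strand, against 48.4% of all 35116 promoters in the table. Counted with or without the other core, ACGTG was in 37.9% of the members' promoters and 21.4% of all, and GCGTG in 43.9% and 36.5%. A CACGTG palindrome counts as ACGTG on both strands. These are matches of letters, with no measurement of binding.

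With baicalein at 20 µM, 12 of the 15 glycolytic enzymes fell and none rose, where 27.8% of all genes were called lower and 29.4% higher. The median log2 fold change of the 15 was -0.75. The falls spanned the pathway from both hexokinases, HK1 and HK2, through GPI, all 3 phosphofructokinases, ALDOC, PGK1, PGAM1 and both enolases to the pyruvate kinase PKM. ALDOA, TPI1 and GAPDH were not called, with log2 fold changes of -0.12 ± 0.14, -0.26 ± 0.17 and 0.07 ± 0.14.

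The largest fall among the enzymes was that of PFKM (ENSG00000152556, chromosome 12, 48105139 to 48146404 on GRCh38), the muscle-type phosphofructokinase of the committed step. Its level was 199, 238 and 224 CPM in the 3 untreated libraries and 54.0, 72.6 and 58.9 CPM with baicalein at 20 µM, a 3.46-fold fall (log2 -1.79 ± 0.14, adjusted p = 4.38e-07). Every treated library lay below every untreated one. The other isozymes fell less. PFKP went from 50.4, 54.6 and 50.3 to 21.0, 24.9 and 25.9 CPM (log2 -1.07 ± 0.11, adjusted p = 2.50e-06). PFKL went from 116, 124 and 128 to 51.8, 68.1 and 54.5 CPM (log2 -1.04 ± 0.12, adjusted p = 8.18e-06). Neither gene's groups overlapped. Per kilobase, PFKM made up 55.1 ± 1.34% of the phosphofructokinase transcripts in untreated LNCaP and 42.4 ± 1.25% after baicalein at 20 µM (SD, n = 3), and its libraries did not overlap. The share of the liver type PFKL was 25.8, 24.1 and 25.9% in the untreated and 33.1, 33.6 and 31.3% in the treated libraries, and that of the platelet type PFKP 20.6, 19.6 and 18.8% and 24.8, 22.7 and 27.4%, both without overlap.

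HK2, the inducible hexokinase that opens glycolysis, stood at 65.7, 70.1 and 66.1 CPM in untreated libraries and 43.6, 51.1 and 42.8 CPM with baicalein at 20 µM (log2 -0.51 ± 0.09, adjusted p = 0.000225). HK1, the constitutive form, fell further, by 1.80-fold (log2 -0.84 ± 0.13, adjusted p = 0.000117), and its share of hexokinase transcripts per kilobase went from 75.7 ± 0.687% to 71.1 ± 2.00%. PGK1, which makes the first ATP of the pathway, fell 1.89-fold (adjusted p = 4.68e-06), and PKM, which makes the last, 2.02-fold (adjusted p = 4.81e-06). The smallest called fall was that of ENO1 (log2 -0.43 ± 0.12, adjusted p = 0.00862), which was lost when the fit held only the compared groups (adjusted p = 0.0677). TPI1 is uncertain on its level, because its pseudogenes held 11.6 to 19.6% of the summed counts, and it was called lower only without the second library of baicalein at 20 µM (log2 -0.47, adjusted p = 0.0187).

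**Figure D2:**
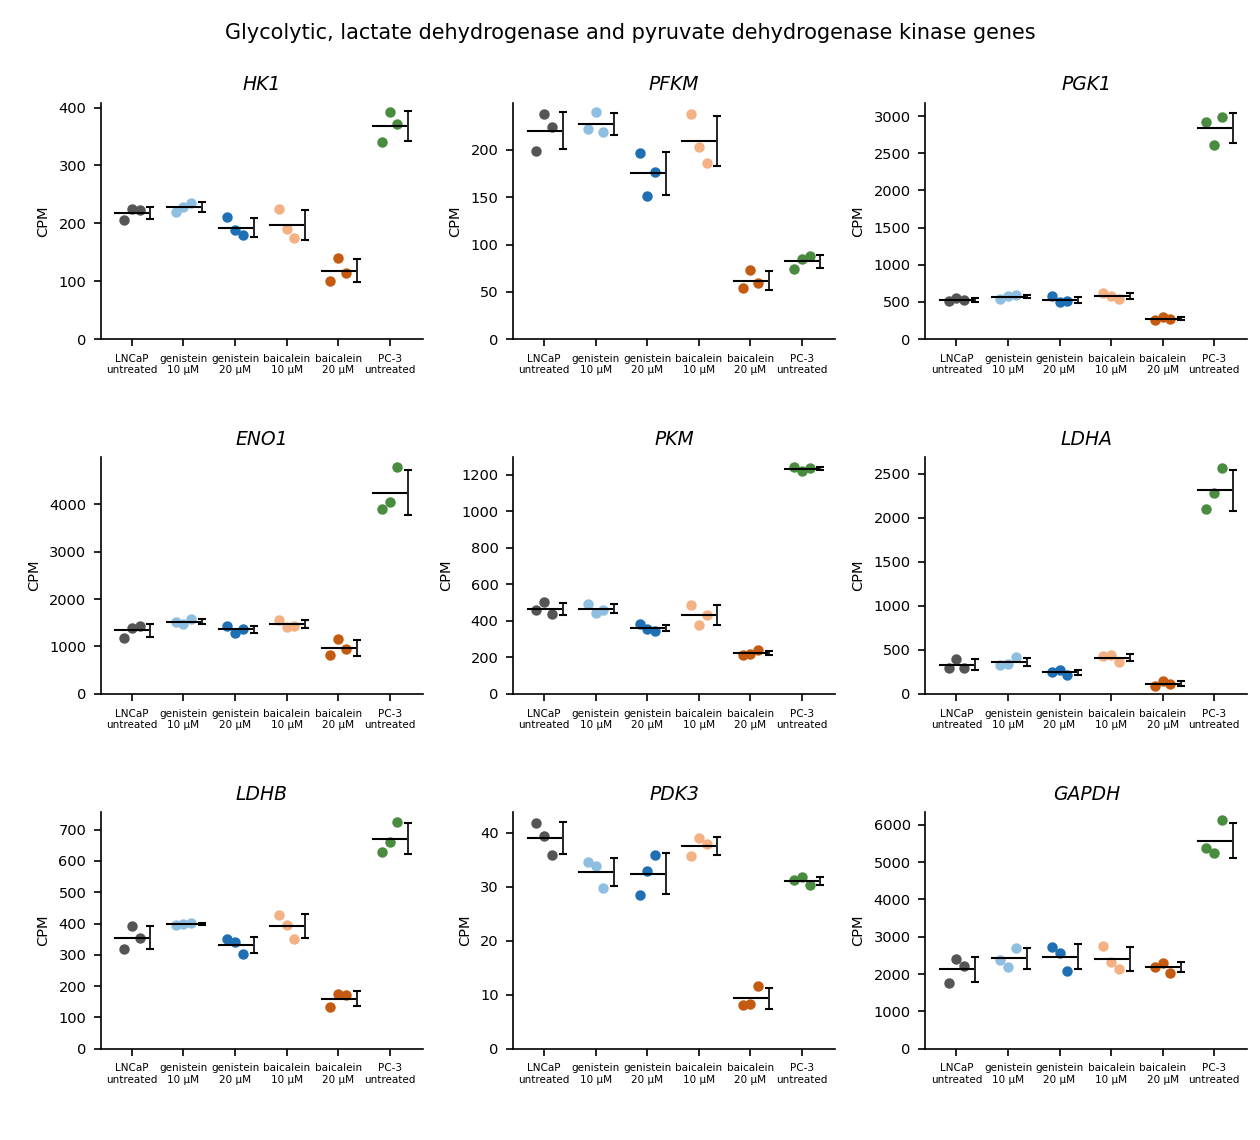
CPM of 9 genes of glycolysis and pyruvate fate (linear axes from 0) in each library, by group. Points are libraries, horizontal lines means and vertical bars SD (n = 3). The libraries of baicalein at 20 µM lie below all untreated LNCaP libraries in every gene shown but GAPDH, and PC-3 lies above in all but PFKM and PDK3.

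Of 4 genes that decide the fate of pyruvate, LDHA, LDHB and PDK3 fell and PDK1 was not called. LDHA, whose subunit favours making lactate, had 298, 402 and 290.5 CPM in untreated libraries and 92.3, 148 and 115 CPM with baicalein at 20 µM, a 2.71-fold fall (log2 -1.44 ± 0.19, adjusted p = 2.48e-05). LDHB, whose subunit favours using it, had 318, 392 and 355 and 133, 174 and 173 CPM, a 2.16-fold fall (log2 -1.11 ± 0.12, adjusted p = 7.04e-06). The groups did not overlap for either gene. The LDHA share of lactate dehydrogenase transcripts per kilobase was 30.7 ± 2.43% untreated and 26.1 ± 2.53% after baicalein at 20 µM, with libraries that overlapped.

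The 2 pyruvate dehydrogenase kinases, which switch off entry of pyruvate into the mitochondria, had different results. PDK3 had 41.9, 39.4 and 35.9 CPM in untreated libraries and 8.15, 8.36 and 11.7 CPM with baicalein at 20 µM, a 4.05-fold fall (log2 -2.02 ± 0.15, adjusted p = 1.66e-07) with no overlap. PDK1, the classical HIF target of the pair, had 54.2, 52.1 and 48.2 and 47.2, 25.4 and 37.2 CPM, without overlap. It was not called (log2 -0.45 ± 0.22, adjusted p = 0.0899). PDK1 was called lower without the first library of baicalein at 20 µM (log2 -0.69, adjusted p = 0.0166) and when trends with GC content and length were removed (log2 -0.47, adjusted p = 0.00015). Whether the falls of PDK1 and PDK3 differ was not tested.

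Of the 2 HIF alpha subunits and 2 prolyl hydroxylases, EPAS1 was called higher and EGLN3 lower. HIF1A had 267, 436 and 455 CPM in untreated libraries and 826, 324 and 567 CPM with baicalein at 20 µM, groups that overlapped (log2 0.62 ± 0.35, 95% interval -0.14 to 1.37, adjusted p = 0.147). It was called higher only without the second baicalein library (log2 0.91, adjusted p = 0.0313). EPAS1 rose from 2.56, 1.10 and 1.55 to 2.97, 3.70 and 5.31 CPM (log2 1.21 ± 0.37, adjusted p = 0.013), a low level at which the call was lost without the second untreated library (adjusted p = 0.0558) or the third baicalein library (adjusted p = 0.0618). EGLN3, the hydroxylase PHD3, had 17.6, 16.8 and 20.7 CPM untreated and 6.39, 6.35 and 5.62 CPM with baicalein at 20 µM. This 2.91-fold fall was called without overlap (log2 -1.54 ± 0.19, adjusted p = 1.75e-05). EGLN1, the main HIF hydroxylase PHD2, was not called (log2 0.10 ± 0.33, 95% interval -0.61 to 0.81).

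Of the transporters, SLC2A1, which brings glucose into the cell, had 29.2, 29.6 and 28.9 CPM untreated and 21.3, 31.7 and 49.4 CPM with baicalein at 20 µM, so that the treated libraries spread to both sides of the tight untreated ones (log2 0.26 ± 0.32, adjusted p = 0.503). SLC16A1, a lactate transporter, was spread too widely for a call, from 98.7 to 589 CPM within the group of baicalein at 20 µM. SLC16A3, the lactate exporter induced by HIF, was called lower (log2 -2.07 ± 0.59, adjusted p = 0.00811) but had only 1.22 ± 0.128 CPM untreated and 0.294 ± 0.264 CPM treated. SLC2A3 had 14 counts in the 3 untreated libraries and 3 with baicalein at 20 µM, and 38.5 to 100% of its summed counts were those of its pseudogenes. PFKFB3 was not called, and PFKFB4 was called higher (log2 0.47 ± 0.17, adjusted p = 0.0335) from 12.0, 14.0 and 14.1 to 14.8, 19.8 and 19.4 CPM. The groups of PFKFB4 did not overlap, but the call was lost without any 1 of the untreated libraries, without the second or the third baicalein library, without the filter on low counts, without the mitochondrially encoded genes and with a replicate block (adjusted p of 0.0508 to 0.111).

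The hypoxia targets outside glycolysis moved in both directions. Of 11 tested, 7 rose and 3 fell with baicalein at 20 µM, where 29.4% of all genes were called higher and 27.8% lower. The 3 falls of 11 thus lie near the share of all genes. The median log2 fold change of the 11 was 0.89, opposite in sign to that of the glycolytic enzymes. Over 16 tested hypoxia targets outside the members, described below, the median was only 0.11, against 0.04 over all genes. The rises were VEGFA, P4HA2, ANKRD37, KDM3A, BNIP3, BNIP3L and ADM, and the falls CA12, NDRG1 and P4HA1.

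VEGFA (ENSG00000112715, chromosome 6, 43770184 to 43786487), the angiogenic growth factor, had 118, 119 and 110.5 CPM in untreated libraries and 295, 352 and 306 CPM with baicalein at 20 µM, a 2.82-fold rise (log2 1.49 ± 0.13, adjusted p = 1.09e-06). P4HA2 (ENSG00000072682, chromosome 5, 132190147 to 132295315), an alpha subunit of collagen prolyl hydroxylase, had 11.3, 10.7 and 12.4 and 41.1, 52.4 and 51.5 CPM, a 4.34-fold rise (log2 2.12 ± 0.12, adjusted p = 2.13e-08). All treated libraries of both genes stood above all untreated ones. Its paralogue P4HA1 went the other way, from 59.6 ± 3.76 to 35.7 ± 3.41 CPM (SD, n = 3; log2 -0.70 ± 0.21, adjusted p = 0.0128). ANKRD37, an ankyrin repeat protein, had 5.95, 5.88 and 6.84 CPM untreated and 14.1, 14.0 and 12.2 CPM treated (log2 1.15 ± 0.14, adjusted p = 1.67e-05). KDM3A, a histone demethylase, had 37.1, 49.5 and 37.4 and 66.5, 82.1 and 74.2 CPM (log2 0.89 ± 0.14, adjusted p = 0.000102). Neither gene's groups overlapped.

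The mitophagy receptors BNIP3 and BNIP3L both rose. BNIP3 had 271, 255 and 258 CPM untreated and 418, 333 and 374 CPM with baicalein at 20 µM (log2 0.56 ± 0.12, adjusted p = 0.00154), and its pseudogenes held 4.43 to 9.23% of the summed counts. BNIP3L had 294, 251 and 269 and 714, 348 and 549 CPM (log2 1.03 ± 0.30, adjusted p = 0.00959). The groups did not overlap, but the BNIP3L libraries with baicalein differed up to 2.05-fold among themselves. ADM, the vasodilator peptide adrenomedullin, rose 4.46-fold on 15 counts in the untreated and 41 in the baicalein libraries (adjusted p = 0.00275).

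CA12 (ENSG00000074410, chromosome 15, 63321378 to 63381846), a carbonic anhydrase of the cell surface, had the largest fall of any tested member with baicalein at 20 µM. Its libraries had 8.31, 9.79 and 8.96 CPM untreated and 1.58, 1.77 and 1.43 CPM treated, a 5.46-fold fall with no overlap (log2 -2.45 ± 0.19, adjusted p = 2.43e-07). NDRG1, a stress-responsive gene that androgen also induces, had 88.0, 93.6 and 105 and 45.4, 61.6 and 43.2 CPM (log2 -0.89 ± 0.16, adjusted p = 0.000315), again with no overlap. MXI1, a MYC antagonist, had 82.5, 72.5 and 75.3 CPM untreated and 13.0, 61.3 and 12.7 CPM treated without overlap, and was not called (log2 -1.37 ± 0.74, adjusted p = 0.13). Without the second baicalein library, which stands apart from the other 2, it was called lower (log2 -2.53, adjusted p = 0.0144).

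**Figure D3:**
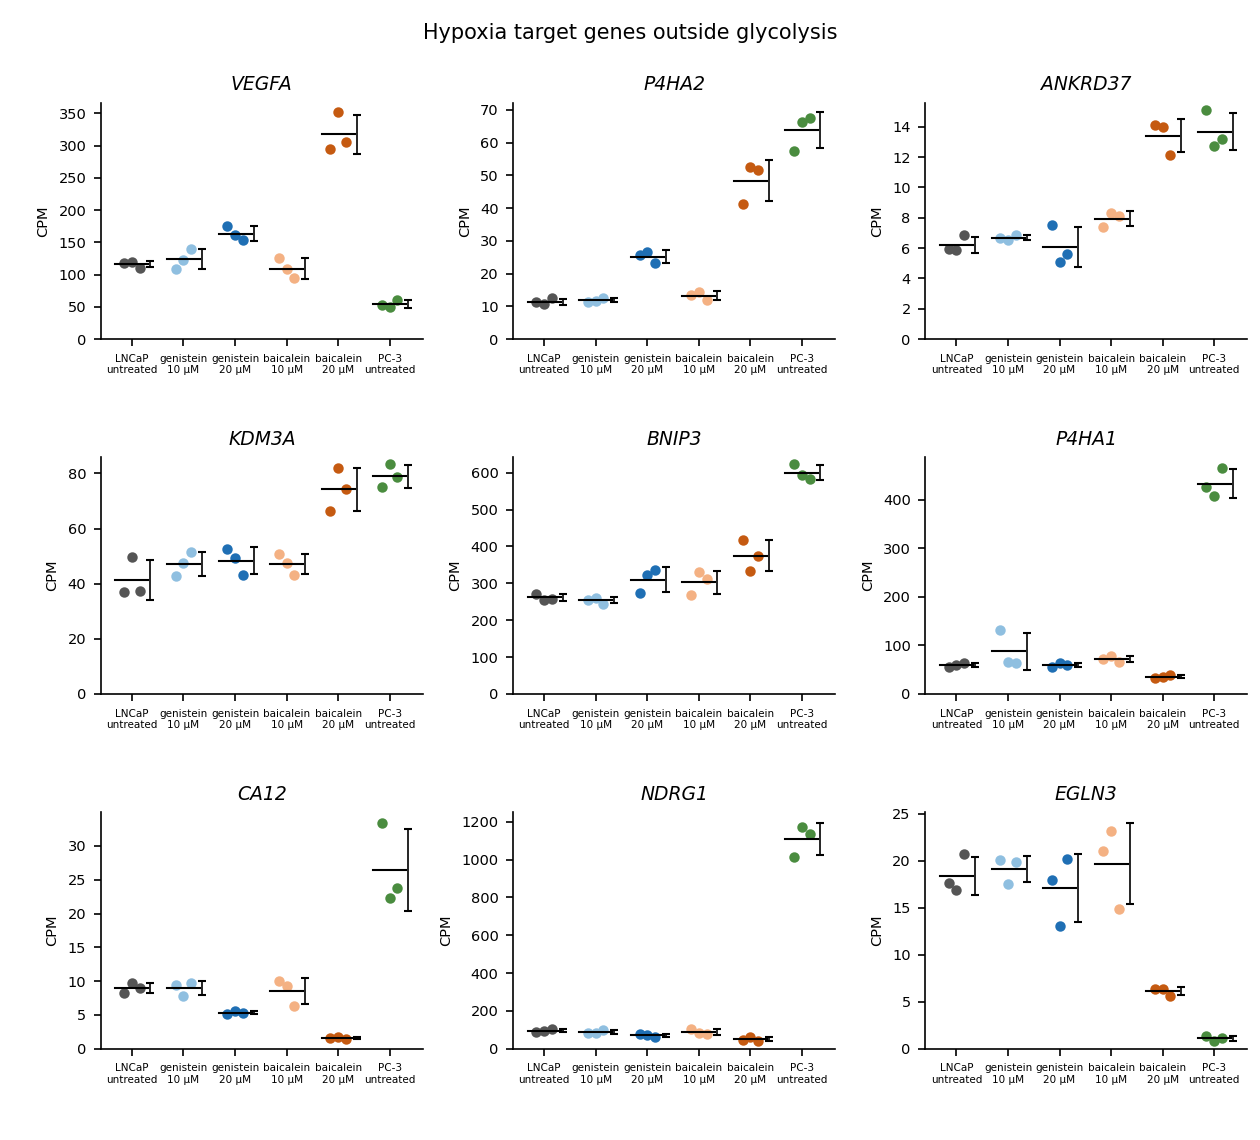
CPM of 9 members that are hypoxia targets outside glycolysis (linear axes from 0) in each library, by group. Points are libraries, horizontal lines means and vertical bars SD (n = 3). With baicalein at 20 µM, the libraries of VEGFA, P4HA2, ANKRD37, KDM3A and BNIP3 stand above, and those of P4HA1, CA12, NDRG1 and EGLN3 below, all untreated LNCaP libraries.

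Genistein at 20 µM left most members without a call. P4HA2 had 25.7, 26.7 and 23.1 CPM, above the untreated libraries (2.29-fold, log2 1.19 ± 0.12, adjusted p = 3.87e-05). ALDOC, the brain-type aldolase, had 124, 108 and 115 CPM against 77.5, 71.7 and 72.1 CPM untreated (log2 0.71 ± 0.13, adjusted p = 0.00371). VEGFA had 176, 161 and 154 CPM (log2 0.55 ± 0.13, adjusted p = 0.0133), a call lost without the third untreated library (adjusted p = 0.0641) or the first genistein library (adjusted p = 0.0603). CA12 had 5.11, 5.65 and 5.31 CPM (log2 -0.69 ± 0.16, adjusted p = 0.0123). None of these 4 genes overlapped with the untreated libraries. The split of 3 rises and 1 fall became 3 and 3 with DESeq2, which added falls of HK2 and PKM, 3 and 2 with other size factors or without the mitochondrially encoded genes, which added PKM, and 7 and 1 with trends in GC content and length removed. Under the fit as designed, PKM had a log2 fold change of -0.31 ± 0.11 (adjusted p = 0.0695) and HK2 of -0.16 ± 0.09 (adjusted p = 0.233).

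Other members of interest were not called with genistein at 20 µM. LDHA had 254, 269.9 and 211 CPM, all below the untreated libraries (log2 -0.37 ± 0.18, 95% interval -0.77 to 0.02, adjusted p = 0.189). LDHB had 351, 340.1 and 304 CPM, which overlapped (log2 -0.04 ± 0.12, adjusted p = 0.868). HIF1A had 429.5, 657 and 549.8 CPM (log2 0.56 ± 0.35, adjusted p = 0.306). BNIP3 had 273, 321 and 336 CPM (log2 0.30 ± 0.12, adjusted p = 0.106) and NDRG1 79.0, 73.7 and 63.9 CPM (log2 -0.35 ± 0.15, adjusted p = 0.149), both without overlap. SLC2A1 and PDK1 overlapped, with 29.6, 21.8 and 40.2 and 40.0, 53.3 and 57.7 CPM. For ALDOC the direction differed between the drugs, with a called rise under genistein and a called fall under baicalein at 20 µM, to 39.3, 59.6 and 51.9 CPM (log2 -0.52 ± 0.13, adjusted p = 0.00537).

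At 10 µM no member passed the threshold for either drug. With genistein, the 4 members at an unadjusted p under 0.05 were ALDOC, TPI1, PFKFB3 and P4HA1, all higher, and with baicalein they were ALDOC, TPI1, ANKRD37 and P4HA2, again all higher. ALDOC had 89.4, 94.1 and 96.8 CPM with genistein and 101, 91.6 and 84.3 CPM with baicalein at 10 µM, both groups above the untreated libraries (log2 0.37 ± 0.13, adjusted p = 0.484, and 0.37 ± 0.13, adjusted p = 0.324). For LDHA the 95% interval of the log2 fold change was -0.23 to 0.56 with genistein and -0.02 to 0.76 with baicalein, and for VEGFA -0.15 to 0.41 and -0.32 to 0.25. For CA12 it was -0.32 to 0.36 and -0.38 to 0.32. These intervals are not adjusted for the number of genes tested. They give the changes that the spread between libraries leaves possible and are not limits of detection. P4HA1 with genistein rested on 1 library, with 132, 66.4 and 64.5 CPM.

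The step from 10 to 20 µM was asked for each drug. For baicalein, 22 members (56.4%) were called lower and 6 (15.4%) higher at 20 µM, against 27.5% and 26.8% of all genes, with a median log2 fold change of -0.74 over the members and 0 over all genes. The glycolytic enzymes held 13 falls of 15, all 4 enzymes of pyruvate fate fell, and of the other hypoxia targets 5 rose and 3 fell. LDHA had 432, 446 and 363 CPM at 10 µM (log2 -1.81 ± 0.19 for the step, adjusted p = 4.34e-06). PFKM had 238, 203 and 186 CPM (log2 -1.76 ± 0.14, adjusted p = 5.96e-07), and PGK1 617, 584 and 540.5 CPM at 10 and 252, 296 and 271 CPM at 20 µM (log2 -1.09 ± 0.10, adjusted p = 1.24e-06). Neither PFKM nor PGK1 had overlapping doses.

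Among the other members, PDK3 had 37.5 ± 1.65 CPM (SD, n = 3) at 10 µM of baicalein (log2 -2.01 ± 0.15 for the step), CA12 10.0, 9.32 and 6.35 CPM (log2 -2.42 ± 0.19) and EGLN3 21.0, 23.1 and 14.8 CPM (log2 -1.69 ± 0.19). LDHB had 428, 396 and 352 CPM (log2 -1.30 ± 0.12) and PFKP 59.1, 49.5 and 48.9 CPM (log2 -1.14 ± 0.11). All 5 were lower in every library at 20 µM, with adjusted p between 2.18e-07 for PDK3 and 9.84e-06 for EGLN3. VEGFA had 126, 108 and 94.1 CPM at 10 µM (log2 1.53 ± 0.13), P4HA2 13.6, 14.4 and 11.8 CPM (log2 1.86 ± 0.12), ANKRD37 7.38, 8.30 and 8.12 CPM (log2 0.75 ± 0.14) and KDM3A 50.8, 47.3 and 43.3 CPM (log2 0.65 ± 0.13). All 4 were higher in every library at 20 µM (adjusted p at most 0.00124). The fall of PDK1 (log2 -0.64 ± 0.22, adjusted p = 0.0225), the rise of PFKFB4 (adjusted p = 0.0271) and the fall of SLC16A3 (adjusted p = 0.0259) were each lost without single libraries. For PDK1 these were the second or the third library of either dose (adjusted p of 0.0508 to 0.0804), for PFKFB4 the second at 10 µM and the second or the third at 20 µM (0.0778 to 0.116), and for SLC16A3 the first or the second at 10 µM and the second at 20 µM (0.0546 to 0.0946). Without the second library at 20 µM, a fall of MXI1 (log2 -2.16, adjusted p = 0.0305) and a rise of BNIP3L (log2 0.93, adjusted p = 0.0146) were added, as were a fall of ALDOA (log2 -0.44, adjusted p = 0.0148) and a rise of BNIP3 (log2 0.39, adjusted p = 0.0166). BNIP3 lay next to the threshold (log2 0.30 ± 0.12, adjusted p = 0.0501) and was also called higher with DESeq2, with RLE size factors, with trends in GC content and length removed and with pseudogene counts added (adjusted p of 0.027 to 0.0476). The rise of BNIP3L was also called without the third library at 10 µM (adjusted p = 0.0376). PFKFB3 was not called, at a log2 fold change of -0.28, but 1 library of baicalein at 10 µM, the first, set its sign: the 3 libraries had 24.0, 7.28 and 4.85 CPM, and without the first the step was a called rise (log2 0.71, adjusted p = 0.0353).

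For genistein, 1 member (2.56%) was called higher and 1 (2.56%) lower between 10 and 20 µM, against 5.59% and 7.63% of all genes, with medians of -0.06 and 0.03. P4HA2 had 11.4, 11.7 and 12.6 CPM at 10 µM and rose (log2 1.11 ± 0.12, adjusted p = 9.01e-05). CA12 had 9.44, 7.77 and 9.74 CPM and fell (log2 -0.71 ± 0.16, adjusted p = 0.013), a call lost without the third library at 10 µM (adjusted p = 0.0583). Neither gene's doses overlapped. VEGFA was also called higher without that library (log2 0.53, adjusted p = 0.0471). DESeq2 called 2 higher and 4 lower, adding VEGFA, GPI, LDHA and PKM. Other size factors, or leaving out the mitochondrially encoded genes, gave 1 higher and 2 lower, adding PKM.

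The isomers were then compared at equal dose. At 10 µM edgeR called 0 members in either direction, where 0.00589% of all genes were called higher with genistein and 0% lower. DESeq2 also called 0, and 1 member, BNIP3, had an unadjusted p under 0.05, with 256, 261 and 245 CPM under genistein and 269.5, 331 and 311 CPM under baicalein (log2 -0.28 ± 0.12, adjusted p = 0.638). The 95% interval of the difference was -0.20 to 0.41 for PFKM, -0.26 to 0.27 for LDHB and -0.25 to 0.17 for PGK1 on the log2 scale.

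At 20 µM, 22 members (56.4%) were higher with genistein than with baicalein and 4 (10.3%) lower, against 25.4% and 23.3% of all genes, and the median log2 difference was 0.55 over the members and 0.02 over all genes. Of the 15 glycolytic enzymes, 14 were higher with genistein. GAPDH was not called (log2 0.19 ± 0.14, 95% interval -0.11 to 0.50). PFKM had 197, 151 and 177 CPM with genistein and 54.0, 72.6 and 58.9 CPM with baicalein (log2 1.52 ± 0.14, adjusted p = 3.19e-06). PFKP had 53.8, 49.1 and 52.3 CPM with genistein (log2 1.13 ± 0.11), and ALDOC differed by 1.22 ± 0.14 on the log2 scale. LDHA and LDHB were both higher with genistein, by 1.07 ± 0.18 and 1.07 ± 0.12. PDK3 had 28.4, 32.9 and 35.9 CPM (log2 1.81 ± 0.15, adjusted p = 8.55e-07) and EGLN3 17.9, 13.1 and 20.2 CPM (2.82-fold higher, adjusted p = 3.77e-05), and CA12 was higher with genistein by 1.76 ± 0.19. The libraries of the 2 drugs did not overlap for any of these 8 genes.

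The 4 members that were lower with genistein than with baicalein at 20 µM were VEGFA (log2 -0.94 ± 0.13, adjusted p = 8.07e-05), P4HA2 (-0.92 ± 0.12, adjusted p = 3.11e-05), ANKRD37 (-1.13 ± 0.14, adjusted p = 3.41e-05) and KDM3A (-0.60 ± 0.13, adjusted p = 0.00251). ANKRD37 had 7.54, 5.06 and 5.62 CPM with genistein and KDM3A 52.7, 49.2 and 43.1 CPM, in both cases below every library with baicalein. HIF1A was not called (log2 -0.06 ± 0.35), with an interval of -0.80 to 0.69, nor was SLC2A1, with an interval of -0.83 to 0.56. The call of ALDOA (log2 0.39 ± 0.14, adjusted p = 0.0343) had overlapping libraries and was lost in 7 alternative fits (adjusted p of 0.0524 to 0.147), among them those without the first or the third library of either drug. ENO2 was lost without the first genistein library (adjusted p = 0.0591), and NDRG1 without that library (adjusted p = 0.0525) or the third baicalein library (adjusted p = 0.0514). EPAS1 was called lower without the third genistein library (log2 -1.37, adjusted p = 0.00867). MXI1 was called higher without the first genistein library (log2 1.98, adjusted p = 0.0357) or the second baicalein library (log2 2.72, adjusted p = 0.0124). Without that second library BNIP3 was called lower (log2 -0.34, adjusted p = 0.0337), and PDK1 was called higher without the first genistein library (log2 0.60, adjusted p = 0.0478) or the first baicalein library (log2 0.72, adjusted p = 0.0167). When the fit held only the compared groups, ENO1, ENO2, HK2, NDRG1 and SLC16A3 were also lost (adjusted p of 0.0507 to 0.0802).

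**Figure D4:**
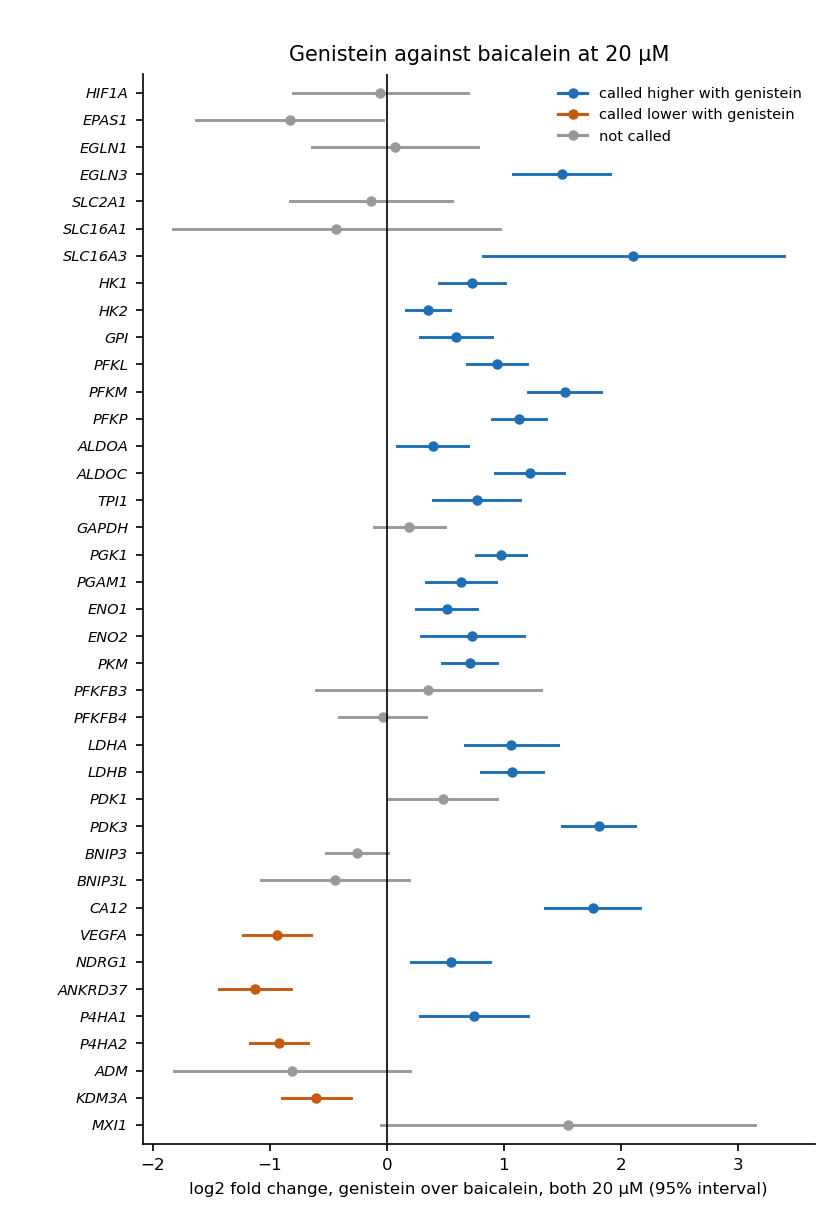
Log2 fold change of genistein over baicalein at 20 µM for the 39 tested members (points) with 95% intervals (lines), in the order of their roles. Blue marks 22 members called higher and orange 4 called lower with genistein, and grey 13 not called. The glycolytic enzymes lie to the right of 0, and VEGFA, ANKRD37, P4HA2 and KDM3A to its left.

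Untreated PC-3 cells carried more of this RNA than untreated LNCaP. Of 39 tested members, 29 (74.4%) were called higher in PC-3 and 6 (15.4%) lower, against 37% and 37.9% of the 17259 genes tested, and the median log2 fold change was 1.11 over the members and -0.02 over all genes. Each line was 1 untreated group, so the line and any difference in its handling cannot be told apart.

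The transporter SLC16A3 separated the lines most, with 1.23, 1.35 and 1.09 CPM in LNCaP and 433, 494 and 496 CPM in PC-3 (log2 8.57 ± 0.15, adjusted p = 2.57e-07). It made up 0.205 ± 0.0511% of the lactate transporter transcripts per kilobase in LNCaP and 34.6 ± 7.15% in PC-3, while SLC16A1 was not called (log2 0.57 ± 0.22, adjusted p = 0.0501). LDHA had 2095, 2281 and 2559.8 CPM in PC-3 against 298, 402 and 290.5 CPM (log2 2.79 ± 0.16, adjusted p = 7.42e-06), and LDHB 629, 660.0 and 726 CPM (log2 0.90 ± 0.11). The LDHA share of lactate dehydrogenase was 62.3 ± 0.680% in PC-3, with every library above every LNCaP library. SLC16A1 was called higher without the first LNCaP library (log2 0.72, adjusted p = 0.0342) or the third PC-3 library (log2 0.75, adjusted p = 0.0137).

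Among the enzymes, 12 of 15 rose and 2 fell in PC-3, where 37% of all genes were called higher and 37.9% lower. ENO2, the neuronal enolase, had 24.0, 27.2 and 23.3 CPM in LNCaP and 161, 90.7 and 177 CPM in PC-3 (log2 2.51 ± 0.27, adjusted p = 0.000148). PGK1 was 5.28-fold higher (adjusted p = 2.01e-06) and HK2, with 104, 113 and 122 CPM, 1.66-fold (adjusted p = 0.00048). PFKM and GPI went the other way. PFKM had 74.4, 84.5 and 88.0 CPM (log2 -1.44 ± 0.12, adjusted p = 3.19e-05) and GPI 258, 299 and 265 CPM against 372, 468 and 425 CPM (log2 -0.64 ± 0.12, adjusted p = 0.00203). PFKP rose, so that it held 46.1 ± 0.621% of the phosphofructokinase transcripts per kilobase in PC-3, where PFKM held 20.5 ± 0.217%. The rise of PFKL (log2 0.40 ± 0.11, adjusted p = 0.0156) was lost without the first LNCaP library (adjusted p = 0.0524), without the second PC-3 library (adjusted p = 0.0585) or without the filter on low counts (adjusted p = 0.12).

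**Figure D5:**
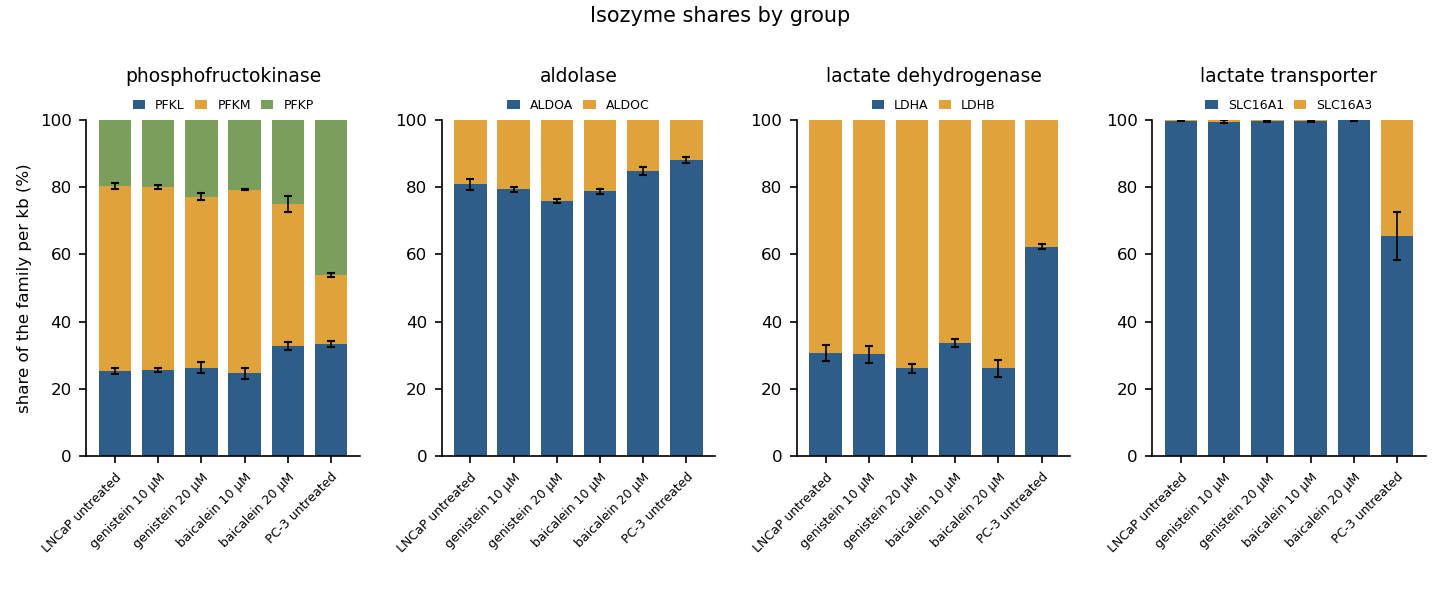
Share of each isozyme in its family, from CPM per kb of exon (%), by group. Bars are means of 3 libraries stacked to 100%, and whiskers the SD at each boundary. PFKM and LDHB hold the largest share in all LNCaP groups, and PFKP and LDHA in PC-3, where SLC16A3 appears beside SLC16A1.

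Both HIF alpha subunits were higher in PC-3. EPAS1 had 2.56, 1.10 and 1.55 CPM in LNCaP and 21.9, 18.8 and 19.2 CPM in PC-3 (log2 3.48 ± 0.30, adjusted p = 4.47e-05). HIF1A had 1039, 878 and 480.5 CPM (log2 1.03 ± 0.33, adjusted p = 0.0247), a call lost in 5 alternative fits (adjusted p of 0.058 to 0.0703), among them those without the first untreated LNCaP library or the first or second PC-3 library. EGLN3 fell 17.1-fold to 1.39, 0.796 and 1.13 CPM (log2 -4.10 ± 0.23, adjusted p = 5.97e-06), and EGLN1 was not called, except higher without the third PC-3 library (log2 0.60, adjusted p = 0.0186).

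Of the 11 other hypoxia targets tested, 8 rose and 2 fell in PC-3, where 37% of all genes were called higher and 37.9% lower. NDRG1 had 1012, 1174 and 1137 CPM (log2 3.51 ± 0.12, adjusted p = 9.09e-07), P4HA1 426, 406 and 465 CPM (log2 2.84 ± 0.11) and P4HA2 57.5, 66.4 and 67.5 CPM (log2 2.46 ± 0.11). ADM had 4.29, 7.48 and 7.80 CPM (log2 4.48 ± 0.39, adjusted p = 4.44e-05), and BNIP3 623, 594 and 583 CPM (log2 1.18 ± 0.09). BNIP3L was called higher only without the third PC-3 library (log2 0.47, adjusted p = 0.0129). No PC-3 library of NDRG1, P4HA1, P4HA2, ADM or BNIP3 overlapped with LNCaP. CA9, the carbonic anhydrase often used as a hypoxia marker, had 3, 10 and 4 counts in PC-3 and 0 in LNCaP, at least 10.0-fold higher against a floor of 3 counts over the untreated LNCaP group. The 0 in LNCaP allows up to 0.0563 CPM over the 3 untreated libraries, and floors cover counting error only. VEGFA was lower in PC-3, with 52.9, 49.6 and 60.8 CPM (log2 -1.11 ± 0.11, adjusted p = 0.000105), as was MXI1 with 35.4, 11.5 and 22.1 CPM (log2 -1.76 ± 0.38, adjusted p = 0.00445). PDK1 rose to 90.2, 84.9 and 66.7 CPM (adjusted p = 0.00502), SLC2A1 to 48.9, 53.3 and 90.3 CPM (adjusted p = 0.00404), and PDK3 fell to 31.2, 31.8 and 30.3 CPM (log2 -0.35 ± 0.10, adjusted p = 0.0158), a call lost without the second or the third PC-3 library (adjusted p of 0.0534 and 0.054).

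Baicalein at 20 µM and PC-3 are each compared with the same untreated LNCaP libraries, so their values are only set side by side. PFKM stood at -1.79 with baicalein and -1.44 in PC-3, EGLN3 at -1.54 and -4.10, and P4HA2 at 2.12 and 2.46 on the log2 scale. LDHA stood at -1.44 and 2.79, NDRG1 at -0.89 and 3.51, and VEGFA at 1.49 and -1.11.

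A further 50 genes of these pathways were examined in 4 lists. Among 9 tested partners and regulators of HIF, 3 (33.3%) rose and 2 (22.2%) fell with baicalein at 20 µM, near the 29.4% and 27.8% of all genes. EGLN2, another HIF hydroxylase, rose (log2 0.86 ± 0.12, adjusted p = 6.23e-05), as did ELOB, a subunit of the ligase that degrades HIF alpha (log2 0.72 ± 0.11). ARNT2, an alternative partner of HIF alpha, fell from 13.9 ± 1.55 to 3.37 ± 1.19 CPM (log2 -1.99 ± 0.19, adjusted p = 1.50e-06). HIF1AN, the asparagine hydroxylase of HIF, was called lower (log2 -0.30 ± 0.12, adjusted p = 0.0468), a call lost in 7 alternative fits (adjusted p of 0.0714 to 0.697), among them those without the second or the third untreated library or the first or the third baicalein library. Of 16 further hypoxia targets, 6 (37.5%) rose, among them STC2 (log2 1.31 ± 0.10) and WSB1 (1.80 ± 0.21), and 3 (18.8%) fell, among them PLOD1 (-1.45 ± 0.12) and KDM4B (-1.66 ± 0.13). The rises of BHLHE40 and INSIG2 were lost with DESeq2 (adjusted p of 0.0806 and 0.0754) and without any 1 of the untreated libraries (0.0761 to 0.155). The fall of FUT11 was lost when GC and length trends were removed (adjusted p = 0.052) and when only the compared groups were fitted (0.0532).

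All 7 tested further enzymes of sugar metabolism were called with baicalein at 20 µM, 3 (42.9%) higher and 4 (57.1%) lower. Of all genes, 29.4% were called higher and 27.8% lower. TIGAR, a phosphatase that lowers the activator of phosphofructokinase, had 35.8, 33.2 and 30.9 CPM untreated and 264, 173 and 232 CPM treated, a 6.89-fold rise (log2 2.78 ± 0.18, adjusted p = 5.11e-08). ENO3, the muscle enolase, rose (log2 1.15 ± 0.13), and PGM1 (-1.26 ± 0.12) and PFKFB2 (-0.89 ± 0.12) fell. Of 10 genes of pyruvate entry into mitochondria, 2 (20%) rose and 4 (40%) fell, against the same 29.4% and 27.8% of all genes. The fall of PDK2 was lost without the second untreated library or the first or the third baicalein library (adjusted p of 0.0552 to 0.0589). That of PDP2 was lost without the first untreated library or the second or the third baicalein library (adjusted p of 0.0559 to 0.0603). The subunits of the mitochondrial pyruvate carrier moved apart, MPC1 from 24.5, 32.6 and 38.1 to 121, 86.6 and 58.9 CPM (log2 1.53 ± 0.30, adjusted p = 0.000761) and MPC2 from 592, 436 and 529.7 to 159.6, 222 and 168 CPM (log2 -1.47 ± 0.16, adjusted p = 7.19e-06). DLAT, the acetyltransferase of pyruvate dehydrogenase, rose (log2 1.22 ± 0.31, adjusted p = 0.00462), and PDHB, part of its first enzyme, fell (log2 -0.62 ± 0.17, adjusted p = 0.00671).

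With genistein at 20 µM, none of the 9 HIF partners was called by edgeR, with 2 at an unadjusted p under 0.05, while DESeq2 called 1 higher, ELOB, and 1 lower, ARNT2. The further hypoxia targets had 6 rises (37.5%) and 3 falls (18.8%), where 8.31% and 8.12% of all genes rose and fell. Of the rises, AK4, BHLHE40, DDIT4, ERO1A and STC2 lost their call without the first untreated library (adjusted p of 0.0707 to 0.144), and again without the second (0.0602 to 0.167) or without the first genistein library (0.0665 to 0.128). The other rise, INSIG2 (log2 0.69 ± 0.12), was lost when trends with GC content and length were removed (adjusted p = 0.112). Of the falls, KDM4B had a log2 fold change of -0.96 ± 0.13, and FUT11 and PLOD1 lost their call without the third untreated library (adjusted p of 0.0694 and 0.0598) or the second or the third genistein library (0.0554 to 0.0815). HKDC1, a hexokinase-like enzyme, was called higher with genistein at 20 µM, from 0.276 ± 0.201 to 1.77 ± 0.749 CPM (log2 2.68 ± 0.49, adjusted p = 0.00278). MPC1 was called higher as well (log2 1.22 ± 0.30, adjusted p = 0.0151), a call lost without the first or the second untreated library or the third genistein library (adjusted p of 0.0531 to 0.0659). At 10 µM neither drug had a called gene in the 4 lists by edgeR, with 4 genes at an unadjusted p under 0.05 for genistein and 7 for baicalein. DESeq2 called 0 of them for genistein, and INSIG2 higher and KDM4B lower for baicalein. In PC-3 the further hypoxia targets had 11 rises of 17 (64.7%), among them STC1 (log2 5.28 ± 0.13) and FUT11 (3.36 ± 0.12), and 3 falls (17.6%), among them DDIT4 (-2.21 ± 0.14) and KDM4B (-1.67 ± 0.18). The HIF partners had 6 rises (66.7%) and 2 falls (22.2%) of 9 there, the sugar enzymes 2 (33.3%) and 3 (50%) of 6, and the genes of pyruvate entry 4 and 4 of 11 (36.4% each). Of all genes, 37% were higher and 37.9% lower in PC-3, so that the shares for pyruvate entry lie near the background. Among the HIF partners, ARNT2 fell in PC-3 (log2 -4.71 ± 0.22). The rise of HIF1AN was lost with DESeq2 and without the filter on low counts (adjusted p of 0.13 and 0.298). It was also lost without any 1 of the LNCaP libraries or the second or the third PC-3 library (0.055 to 0.125). The rise of RBX1 was lost with GC and length trends removed, without the filter or without the third LNCaP library (0.0502 to 0.262).

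Libraries of 1 group did not vary alike in all members. In 13 members, the highest library exceeded the lowest by more than 2-fold in at least 1 group. None of the 15 glycolytic enzymes was among these 13. Among groups with no library at 0, the widest were MXI1 with 6.17-fold and SLC16A1 with 5.97-fold. Groups with a library at 0 have no such ratio and were left out, as for SLC16A3 with baicalein at 20 µM and ADM with baicalein at 10 µM. HIF1A, EGLN1, BNIP3L and PDK1, whose longest transcripts have a GC content of 36.4, 44.1, 38.9 and 39.8%, ranked the 3 libraries in the same order in 4 of the 6 groups. These 4 genes were picked without a fixed rule. Other members of like GC content, such as P4HA1 (40.8%) and KDM3A (42.5%), were not ranked, so the shared order describes these 4 alone. The part of GC content in this order was not tested.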

How the data were processed

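The deposited counts are whole reads per gene, not normalized. Per the submitters' processing notes the authors used fastp, STAR 2.7.6a, featureCounts 1.6.4, DESeq2 1.20.0 and GRCh38; the strand setting and the treatment of reads with several matches are not given in the sources used here, and the library kit named in the labels does not mark strand, so reads of overlapping or antisense genes cannot be told apart. The 18 count columns were used. Another 18 columns hold FPKM, with 6 headers for 20 µM baicalein and 0 for 10 µM; these and 13 comparisons of the authors were not used.

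Tests were edgeR 4.0.16 quasi-likelihood fits in R 4.3.3 with TMM and filterByExpr, 1 over the 15 LNCaP libraries (16985 genes) and 1 over the 6 untreated libraries (17259 genes), with Benjamini-Hochberg adjustment over all genes tested and a threshold of 0.05. Lengths and GC content are from GENCODE 29, which matched 58228 of 63241 genes. On simulated counts for baicalein at 20 µM against untreated LNCaP (16277 genes), the fit recovered 64 of 100 genes changed 2-fold and 100 of 100 changed 4-fold, with 11 false calls. The simulation changed far fewer genes than were called in that comparison, all above a minimum count, and gave every gene the same spread. It therefore does not give the recovery for members at low counts or with a wide spread. Replicates differed beyond sampling noise (chi-square per degree of freedom 12.0 to 97.6).

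The members and lists were chosen with earlier results of these data known. Some marker genes are not reported here and are left out of the marker sums. All 41 members could be named. Values per library are given for HIF1A, SLC2A1, HK2, LDHA, LDHB, PDK1, VEGFA, CA9, BNIP3 and NDRG1 and, in each comparison, for up to 8 members called in each direction with the largest fold changes, at least 5 CPM and no overlap; other members given so were chosen after their values were seen. From the pathway lists, up to 2 genes per direction with the smallest adjusted p were named, and others where their call changed in alternative fits. Alternatives were DESeq2 1.42.0, RLE size factors, no filter, other samples in the fit, a replicate block, removal of mitochondrially encoded genes, removal of GC and length trends (mgcv 1.9.3), added pseudogene counts and leaving out each library.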

Additional observations from a re-analysis of the deposited data

How the results depend on the processing

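Counts of called members, both directions together, stayed within 1.5 times the reported ones in all alternatives run, apart from the following. With GC and length trends removed, baicalein at 10 µM against untreated LNCaP had 1 called member, ALDOC, where 0 was reported, genistein at 20 µM against untreated LNCaP had 8 where 4 was reported, and genistein at 20 against 10 µM had 7 where 2 was reported. The last comparison had 6 with DESeq2 and 6 when only the compared groups were fitted. Between the drugs at 20 µM, members lower with genistein numbered 7 with GC and length trends removed, where 4 was reported. The cause was not tested. Leaving out single libraries gave 3 to 4 called members for genistein and 27 to 31 for baicalein at 20 µM against untreated LNCaP, 25 to 29 for baicalein at 20 against 10 µM, 24 to 28 between the drugs at 20 µM and 32 to 37 for PC-3. Of 4904 recomputed single-gene results, 52 lost a call, 66 gained one in the same direction and 1 gained one in the opposite direction. The last is PFKFB3 between the doses of baicalein, which ranged from -0.66 to 0.71 (log2) with 1 library left out.

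Over all genes, the split of calls for genistein at 20 µM was 1412 higher and 1379 lower, and 1076 and 1685 without mitochondrially encoded genes. For baicalein at 10 µM it was 15 and 53, 125 and 118 with GC and length trends removed, and 12 and 89 without mitochondrially encoded genes. The median of all genes in PC-3 moved from -0.02 to -0.14 (log2) with those trends removed.

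The replicate numbers gave no clear pairing of the samples, though 3 libraries a group cannot exclude one. Same-numbered libraries had correlations of their deviations between -0.377 and 0.231, and 0 of 9 comparisons had all 3 pairs over 0.1. For baicalein at 20 µM against untreated LNCaP these correlations were 0.231, 0.216 and 0.00184. With the replicate block, 28 members were called for baicalein at 20 µM, 4 for genistein at 20 µM, 25 between the drugs at 20 µM and 35 for PC-3. Members at low counts, such as ADM, SLC16A3 and CA9, are limited by depth.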
